A study of Sus scrofa with 6 samples.

Results

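Genes of Fc receptor and SYK signalling were compared between abdominal aortas of pigs fed normal chow (NC) and pigs on the HFCF diet, which is rich in fat, cholesterol and fructose. The group holds 9 named genes: the receptor genes FCGR1A, FCGR2B and FCGR3A, the signalling chain FCER1G, the kinases SYK, LYN and BTK, the phospholipase PLCG2 and the phosphatase PTPN6. Of the 30477 genes in the FPKM table, 7 carried one of these names, and FCGR3A was found through the NCBI gene ID in its description. No row matched FCGR2B. A row described as a low affinity IgG Fc receptor II-like gene (ENSSSCG00000006350, called the type II-like receptor here) is given beside the members but was not counted among them. All 8 members with a row passed the filter of a mean FPKM of at least 0.1. The genes were chosen by function, with earlier results of these data known.

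The pigs were male Wuzhishan miniature pigs. They received normal chow, or chow mixed with shortening oil, egg yolk powder, cholesterol and fructose, for 6 months, and total RNA of the abdominal aorta was sequenced in 1 library per pig (3 NC and 3 HFCF pigs). No genotype or drug was applied in either group, and the labels give an age of 3 to 4 months, while the methods give an older age at acquisition. Levels are in FPKM, fragment numbers scaled to the length of the gene's exons and to the mapped total of the library. This lets levels be compared between genes. Between pigs the summed FPKM differed, and rescaling moved the split of all genes, as given below. Smooth muscle genes stood at high levels in both groups: the FPKM of 8 such genes summed to 16389 to 23764 in the NC pigs and 8341 to 13261 in the HFCF pigs.

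Fc receptors bind the constant part of antibodies and so link immune complexes and antibody-coated particles to phagocytes and other leukocytes. The activating receptors signal through tyrosine motifs (ITAMs), many of them on the gamma chain encoded by FCER1G. SRC family kinases such as LYN phosphorylate the motif, SYK docks on it, and BTK and PLCG2 then carry the signal to calcium and lipid messengers. Inhibitory receptors such as FCGR2B carry a related motif (ITIM) that recruits phosphatases such as PTPN6 (SHP-1) or INPP5D (SHIP1). In arteries these genes are known chiefly from macrophages and other leukocytes.

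Summed FPKM differed between libraries (272207 to 287141 in NC and 330222 to 338690 in HFCF pigs), and depths relative to the first NC pig were at most 1.37 in NC and 1.03 to 1.07 in HFCF pigs. Between 39.9% and 43.9% of genes were at 0 in each pig. The 13 mitochondrial mRNAs took 4.55% to 6.78% of the FPKM in NC pigs and 8.79% to 13.2% in HFCF pigs. Their part in the results below was not tested. The first HFCF pig had the highest value of its group for 7 of the 8 members, at 1.23 to 3.22 times the mean of the other HFCF pigs over the 8, so the fold change of each member without it is given beside the main one. The limma p-values set the difference of the group means against the spread between these pigs. That spread was taken as equal in both groups and moderated by a trend over all tested genes.

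Most members of the group were higher in the HFCF pigs. An adjusted p under 0.05 (limma, Benjamini-Hochberg over the 15384 genes tested) was found for 6 of 8 members, all of them higher: FCER1G, FCGR3A, SYK, LYN, BTK and PTPN6. Of all tested genes, 22.8% were called higher and 6.16% lower. FCGR1A and PLCG2 did not pass the adjusted threshold. All 8 were past the thresholds of the study (a ratio of group means above 2 and an unadjusted p under 0.05), against 20.7% of all genes. The p used here came from limma and not from the study. For 7 members the lowest HFCF value lay above the highest NC value, against 36.1% of all genes. The median log2 fold change was 3.38 over the members and 0.32 over all genes. In whole tissue, more cells of a type and more RNA per cell cannot be told apart.

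**Figure D1:**
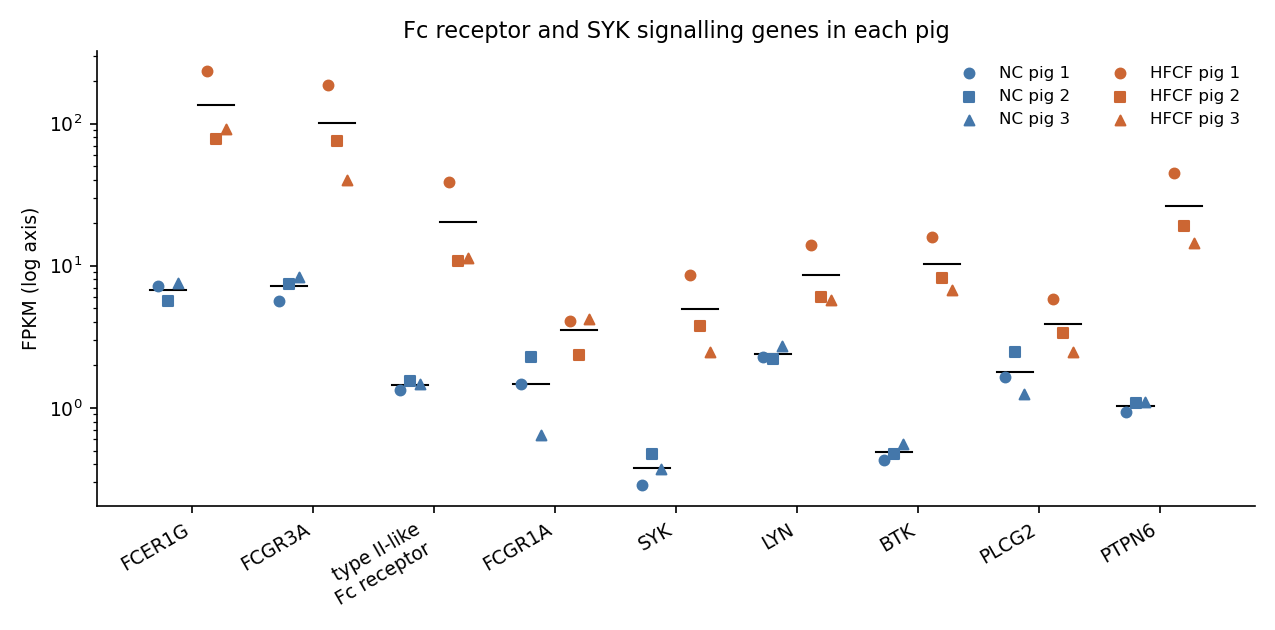
FPKM of each member and of the type II-like receptor in every pig (log axis), with the NC pigs in blue, the HFCF pigs in orange and a line at each group mean. The HFCF points lie above all NC points for every gene shown except PLCG2, where the lowest HFCF pig (2.479) falls just under the highest NC pig (2.486).

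Among the receptor genes, the signalling chain and the low affinity receptors had the largest fold changes. FCER1G (ENSSSCG00000006357), the gamma chain shared by activating Fc receptors, was at 7.14, 5.63 and 7.57 FPKM in the NC pigs and 232.7, 77.9 and 91.7 FPKM in the HFCF pigs. Every HFCF pig was above every NC pig, and the first HFCF pig stood well above the other two. The means were 6.78 ± 1.02 and 134.1 ± 85.7 FPKM (SD, n = 3 each), and the log2 fold change was 4.12 (SE 0.40, limma adjusted p = 0.00126). Without the first HFCF pig it was 3.63 (adjusted p = 0.000774).

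FCGR3A (ENSSSCG00000036618), a receptor for IgG in immune complexes that signals through the gamma chain, was at 5.63, 7.44 and 8.37 FPKM in NC pigs and 185.9, 75.1 and 40.3 FPKM in HFCF pigs. The groups did not overlap, and the HFCF pigs were spread more widely than the NC pigs. The means were 7.15 ± 1.39 and 100.4 ± 76.0 FPKM (SD, n = 3 each), with a log2 fold change of 3.53 (SE 0.51, limma adjusted p = 0.00423). Without the first HFCF pig it was 2.95 (adjusted p = 0.00335).

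The type II-like receptor was at 1.33, 1.55 and 1.46 FPKM in NC pigs and 38.6, 10.8 and 11.4 FPKM in HFCF pigs. The NC values were close together and all were below the HFCF values. Its log2 fold change was 3.46 (SE 0.47, limma adjusted p = 0.00353), and 2.86 without the first HFCF pig (adjusted p = 0.00128). The low affinity receptor genes are close in sequence, and the sources used here do not say how reads shared between them were divided, so the level of each is uncertain.

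FCGR1A (ENSSSCG00000006678), the high affinity receptor for monomeric IgG, was at 1.47, 2.27 and 0.644 FPKM in NC pigs and 4.06, 2.36 and 4.24 FPKM in HFCF pigs. The groups were separated only by the gap between 2.27 and 2.36 FPKM, and this was the sole member with its highest value in the third HFCF pig. The means were 1.46 ± 0.81 and 3.55 ± 1.04 FPKM (SD, n = 3 each). The log2 fold change of 1.33 (SE 0.46) did not pass the threshold (limma adjusted p = 0.0661), and it was 1.71 without the second NC pig (adjusted p = 0.0457) and 1.22 without the first HFCF pig (adjusted p = 0.149).

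The kinases SYK and BTK rose from below 1 FPKM. SYK (ENSSSCG00000009589), which binds phosphorylated ITAMs, was at 0.287, 0.472 and 0.369 FPKM in NC pigs and 8.62, 3.75 and 2.48 FPKM in HFCF pigs. The groups did not overlap. The means were 0.376 ± 0.093 and 4.95 ± 3.24 FPKM (SD, n = 3 each), and the log2 fold change was 3.23 (SE 0.46, limma adjusted p = 0.00396). It was 2.74 without the first HFCF pig (adjusted p = 0.00515), and 1.98 with a pseudocount of 1 (adjusted p = 0.010004).

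BTK (ENSSSCG00000026742), a TEC family kinase that activates PLCG2, was at 0.428, 0.473 and 0.558 FPKM in NC pigs and 16.0, 8.16 and 6.75 FPKM in HFCF pigs. All HFCF pigs were above all NC pigs, and the ratio of the group means was 21.2. The log2 fold change was 4.05 (SE 0.34, limma adjusted p = 0.000903), and 3.69 without the first HFCF pig (adjusted p = 0.00133). With a pseudocount of 1 it was 2.84.

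LYN (ENSSSCG00000006250), a SRC family kinase of leukocytes that acts on both activating and inhibitory motifs, had a higher NC level and a smaller change. It was at 2.27, 2.20 and 2.72 FPKM in NC pigs and 14.1, 6.02 and 5.77 FPKM in HFCF pigs, with no overlap. The log2 fold change was 1.68 (SE 0.35, limma adjusted p = 0.0141), and 1.27 without the first HFCF pig (adjusted p = 0.0102). Without the first NC pig it was 1.65 and no longer passed the threshold (adjusted p = 0.0556).

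PLCG2 (ENSSSCG00000002688), the phospholipase that releases calcium downstream of SYK and BTK, was at 1.64, 2.49 and 1.25 FPKM in NC pigs and 5.81, 3.38 and 2.48 FPKM in HFCF pigs. The groups overlapped between the third HFCF pig and the second NC pig. The means were 1.79 ± 0.63 and 3.89 ± 1.72 FPKM (SD, n = 3 each). The log2 fold change of 1.04 (SE 0.38) did not pass the threshold (limma adjusted p = 0.0780), nor did it under any of the 15 alternatives (adjusted p from 0.0537 to 0.325). It was 0.713 without the first HFCF pig (limma adjusted p = 0.175).

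PTPN6 (ENSSSCG00000025537), the phosphatase recruited by inhibitory receptors, showed the largest change of the 8 members in the main setting. It was at 0.926, 1.08 and 1.10 FPKM in NC pigs and 45.2, 18.9 and 14.3 FPKM in HFCF pigs. The NC values lay within a narrow range and all were far below the HFCF values, at a ratio of means of 25.2. The log2 fold change was 4.35 (SE 0.41, limma adjusted p = 0.00115), and 3.87 without the first HFCF pig (adjusted p = 0.000877). With a pseudocount of 1 it was 3.57, below the 3.95 of FCER1G. In the main setting PTPN6 ranked 80 from the top among the 15384 tested genes. The ranks were 108 for FCER1G, 115 for BTK, 206 for FCGR3A and 277 for SYK.

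**Figure D2:**
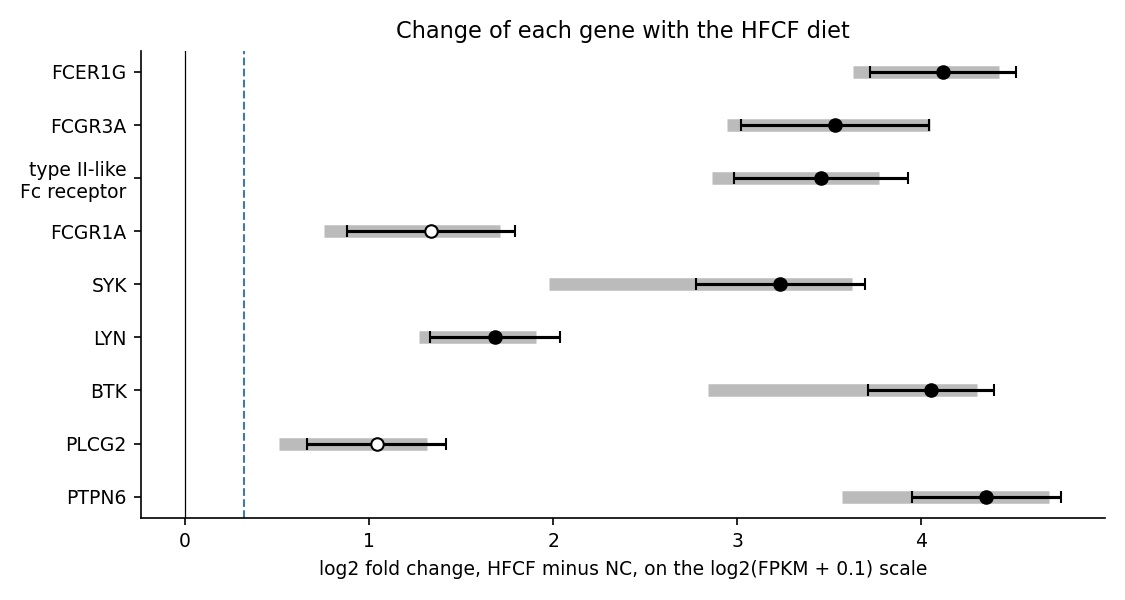
Log2 fold change (HFCF minus NC, log2(FPKM + 0.1) scale) of each member and the type II-like receptor, with black error bars for the SE and grey bars for the range over 15 alternative analyses. Filled points had a limma adjusted p under 0.05, open points did not, and the dashed line is the median of all genes (0.32). PTPN6, FCER1G and BTK lie above 4, and FCGR1A and PLCG2 are the open points near 1.

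The order of the levels changed between the groups. In NC pigs FCGR3A (mean 7.15 FPKM) and FCER1G (6.78 FPKM) were highest and did not differ beyond their spread, since FCGR3A was above FCER1G in 2 of 3 pigs. LYN, PLCG2, FCGR1A and PTPN6 followed, and the order of LYN and PLCG2, and that of FCGR1A and PTPN6, likewise held in 2 of 3 pigs only. BTK and SYK were lowest in every NC pig. In HFCF pigs the order FCER1G, FCGR3A, PTPN6, BTK, LYN, SYK held in 3 of 3 pigs, and PLCG2 and FCGR1A were lowest on average. PTPN6 thus stood below LYN in NC pigs and above LYN and BTK in HFCF pigs.

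The summed FPKM of the 8 members was 19.8, 22.04 and 22.6 in NC pigs and 512.4, 195.5 and 168.0 in HFCF pigs. FCER1G and FCGR3A together made up 59.3% to 70.6% of this sum in NC pigs and 78.2% to 81.7% in HFCF pigs. The share of PTPN6 was 4.68% to 4.88% in NC and 8.52% to 9.65% in HFCF pigs. The share of LYN was 9.99% to 12.04% and 2.74% to 3.43%, and that of PLCG2 was 5.54% to 11.3% and 1.13% to 1.73%. SYK kept an overlapping share of 1.45% to 2.14% in NC and 1.47% to 1.92% in HFCF pigs.

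Without an added constant, ratios of genes in the same pig do not depend on the scaling between libraries. The 0.1 added here leaves some dependence for genes of low FPKM. The ratios were compared on the log2(FPKM + 0.1) scale with exact two-sided permutation tests over the 6 pigs. The smallest possible p of this test is 0.1, so that none of the 13 ratios could pass 0.05. PTPN6 relative to SYK was 1.27 ± 0.20 in NC and 2.39 ± 0.09 in HFCF pigs (SD, n = 3 each), a difference of 1.12 with no overlap (exact p = 0.1, Benjamini-Hochberg 0.144). LYN relative to SYK was 2.40 ± 0.34 in NC and 0.85 ± 0.29 in HFCF pigs, a difference of -1.55 with no overlap (exact permutation p = 0.1). With a pseudocount of 1 these differences were 1.59 for PTPN6 and -0.58 for LYN relative to SYK.

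FCER1G relative to TYROBP, the other main ITAM chain of myeloid cells, was -0.65 ± 0.21 in NC and -0.26 ± 0.17 in HFCF pigs, a difference of 0.39 with no overlap (exact permutation p = 0.1). FCGR1A relative to FCGR3A was -2.35 ± 1.01 in NC and -4.55 ± 1.18 in HFCF pigs, and these groups overlapped (difference -2.20, exact permutation p = 0.2, Benjamini-Hochberg 0.26). The type II-like receptor relative to FCGR3A, a ratio added after the values were seen, was -2.21 ± 0.22 in NC and -2.29 ± 0.48 in HFCF pigs, a difference of -0.07 (exact permutation p = 0.9) that was -0.50 with a pseudocount of 1.

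Macrophage genes moved with the members. Of 11 macrophage markers with a row, 10 were higher in HFCF pigs and 0 lower, with a median log2 fold change of 3.96. Their summed FPKM was 47.9 to 59.5 in NC and 700.9 to 1807 in HFCF pigs, and the first HFCF pig was at 2.42 times the mean of the other two. CD68, a lysosomal protein of phagocytes, went from a mean of 4.48 to 157.6 FPKM, AIF1 from 0.926 to 39.6 FPKM and the scavenger receptor MSR1 from 0.219 to 12.4 FPKM. The part of a changed cell composition in the results of the members was not tested.

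Relative to the mean log2 level of these 11 markers in the same pig, the members split. PTPN6 was higher by 0.84, FCER1G by 0.60 and BTK by 0.54 in HFCF than in NC pigs, each with no overlap (exact permutation p = 0.1 each). The value of BTK turned to -0.12 with a pseudocount of 1. LYN fell by 1.83, FCGR1A by 2.18 and PLCG2 by 2.48 relative to the markers, again with no overlap (exact permutation p = 0.1 each). FCGR3A differed by 0.01 (exact permutation p = 0.8) and SYK by -0.28 (exact permutation p = 0.4), and both overlapped between groups. Leaving out 1 pig at a time, the difference ranged from -0.18 to 0.27 for FCGR3A and from -0.39 to -0.12 for SYK. With a pseudocount of 1 it was 0.41 for FCGR3A and -0.99 for SYK, so neither can be called unchanged relative to the markers. The markers themselves changed unequally. MSR1, AIF1, CD68, C1QC and C1QB had log2 fold changes of 4.43 to 5.22, above the 4.35 of PTPN6. MRC1, MARCO, CD14, CSF1R, CD163 and C1QA had 1.31 to 3.96, below the 4.05 of BTK. The sign for PTPN6, FCER1G and BTK thus depends on the markers taken.

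**Figure D3:**
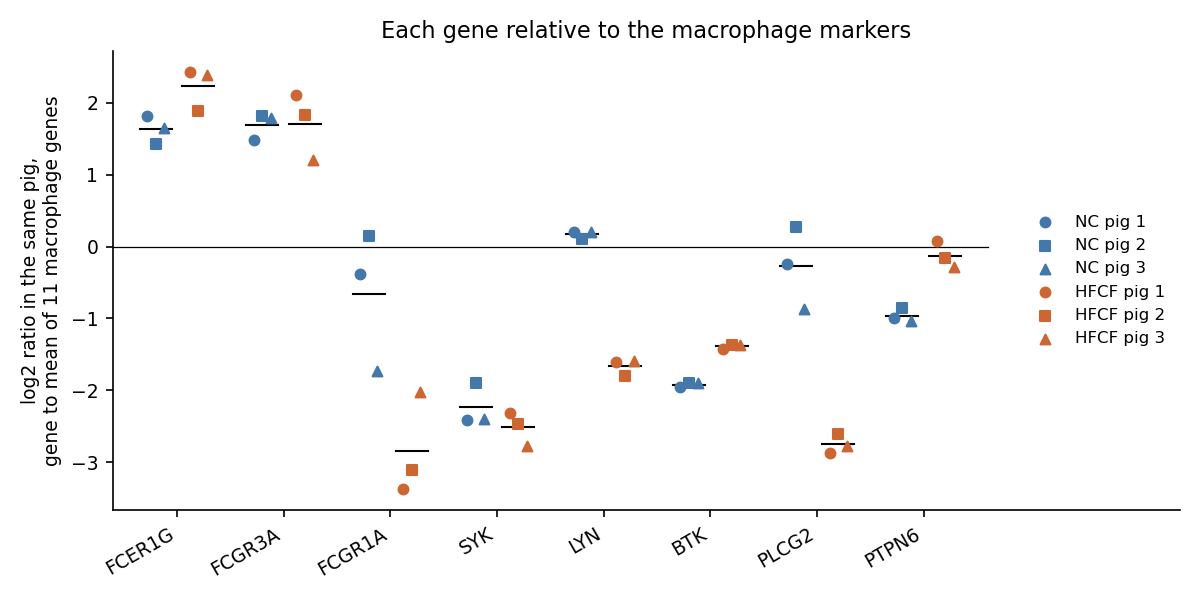
Log2 ratio of each member to the mean of 11 macrophage markers in the same pig (log2(FPKM + 0.1) scale), 1 point per pig, with NC pigs in blue, HFCF pigs in orange and a line at each group mean. The HFCF points lie above the NC points for PTPN6, FCER1G and BTK, below them for LYN, FCGR1A and PLCG2, and among them for FCGR3A and SYK.

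Markers of lymphocytes and neutrophils gave smaller sums than those of macrophages. The 11 T and NK cell markers summed to 2.60 to 3.32 FPKM in NC and 32.8 to 78.6 FPKM in HFCF pigs. Of them, 3 (27.3%) were higher at an adjusted p under 0.05, against 22.8% of all genes, and 8 at an unadjusted p under 0.05. The share of all genes at that unadjusted level was not computed, here or for the lists below. CD8A, among the 3, was called under only 3 of the alternative analyses. Most of the HFCF sum was NKG7, a granule protein of cytotoxic cells (mean 1.72 to 38.7 FPKM). Of the 8 B and plasma cell markers with a row, 7 were tested, with a median log2 fold change of 2.06. Only CD79A passed the adjusted threshold (mean 8.36 to 36.1 FPKM), and 3 were higher at an unadjusted p under 0.05. The sums of the 8 were 6.96 to 11.5 FPKM in NC and 36.1 to 56.1 FPKM in HFCF pigs. The defining B cell gene MS4A1 was at 0 in every pig except the first HFCF pig, where it was at 1.28 FPKM. Neutrophil markers summed to 1.68 to 3.07 FPKM in NC pigs and to 89.2, 13.5 and 6.63 FPKM in HFCF pigs, where CSF3R was the marker called higher and MPO and MMP8 stayed near 0. The first HFCF pig thus stood apart for neutrophil markers by 8.86 times the mean of the other two, more than for any member.

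Mast cell markers summed to 1.92 to 4.72 FPKM in NC and 5.23 to 17.9 FPKM in HFCF pigs (2 of 4 higher), and dendritic cell markers to 73.4 to 100.9 and 49.0 to 119.6 FPKM (1 of 5 tested higher). Beside these counts, 22.8% of all tested genes were called higher. The dendritic sum was almost wholly IRF8 (means of 81.7 and 75.6 FPKM), and the marker called higher was BATF3 (means of 0.197 and 2.40 FPKM, log2 fold change 3.08). Of 5 platelet, 8 endothelial and 6 adipocyte markers 0 were called by limma, with 1, 2 and 0 at an unadjusted p under 0.05, and their sums overlapped between groups. Of the 8 smooth muscle markers, 6 were lower in HFCF pigs, with a median log2 fold change of -1.12. That count was 1 to 7 when 1 pig was left out.

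**Figure D4:**
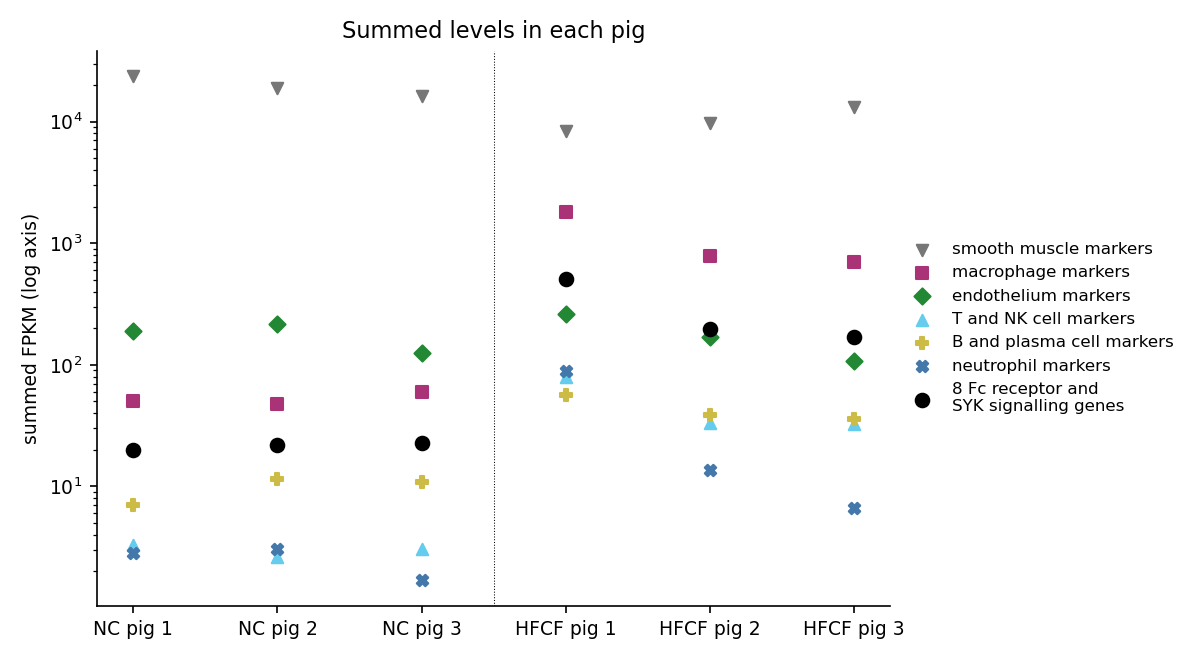
Summed FPKM per pig (log axis) of the 8 members and of the marker lists for macrophages, neutrophils, T and NK cells, B and plasma cells, smooth muscle and endothelium. The members run from 19.8 to 22.6 in NC pigs and from 168.0 to 512.4 in HFCF pigs, in the same pig order as the macrophage markers within the HFCF group.

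Across all 6 pigs, the levels of most members followed one another closely. Pearson's r of a member with the mean of the other members was 0.986 for FCER1G, 0.986 for FCGR3A, 0.995 for SYK, 0.970 for LYN, 0.990 for BTK and 0.996 for PTPN6, against 0.872 for PLCG2 and 0.755 for FCGR1A. These values describe 6 libraries that also differ by diet. Taken over deviations from the group means, r was 0.815 to 0.974 for the members other than FCGR1A, and 0.10003 for FCGR1A. The genes outside the lists most like the mean of the members were SLC49A3, PLCB2, TRPV2, LYPLA1, DOCK10 and SLA-DMB, with r of 0.9987 to 0.9997 over the 6 pigs, or 0.986 to 0.998 over deviations from the group means. These were the 6 highest of 9466 candidate genes, of which 947 (10.004%) had r above 0.95. The first HFCF pig was the highest of its group for 7 of the 8 members and for each of these 6 genes. The weight of this single pig in the r over deviations was not tested.

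Other genes of the pathway were read from 8 lists of 98 genes by role, of which 89 had a row and 86 were tested. Of these, 42 (48.8%) were higher in HFCF pigs and 3 lower, against 22.8% and 6.16% of all genes, and the median log2 fold change was 1.42. Without the first HFCF pig 39 were higher and 3 lower. The 42 include CLEC7A, CLEC5A, OSCAR and CD300LF, which passed the filter only through the HFCF pigs. The same filter was used for the share of all genes. The 3 lower genes, named after their values were seen, were GAB2 (adaptor), WASF2 (actin regulator) and PTPN11 (the phosphatase SHP-2).

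Among other Fc receptors, 2 of 6 tested genes were higher. FCER1A, the IgE-binding chain that pairs with FCER1G, was at a mean of 1.22 ± 0.57 FPKM in NC and 8.30 ± 5.38 FPKM in HFCF pigs (SD, n = 3 each, log2 fold change 2.45, limma adjusted p = 0.0371), a call that held under 4 of 15 alternatives. FCGRT, the neonatal receptor that recycles IgG and does not signal through ITAMs, was at 46.9 ± 4.08 and 99.5 ± 1.26 FPKM (log2 fold change 1.09, limma adjusted p = 0.00226). FCAR, the IgA receptor, was at 0 in all 6 pigs.

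Of 9 other ITAM adaptors and partner receptors, 6 were higher and 0 lower. TYROBP was at 11.1, 10.4 and 10.4 FPKM in NC pigs and 247.6, 105.6 and 110.3 FPKM in HFCF pigs (log2 fold change 3.73, limma adjusted p = 0.000903). TREM2, a lipid-sensing receptor that signals through TYROBP, had a mean of 0.225 FPKM in NC and 27.2 FPKM in HFCF pigs (log2 fold change 6.35). CLEC7A, a receptor for fungal glucans, had means of 0.0350 and 7.85 FPKM (log2 fold change 5.88, and 3.06 to 7.93 over the 15 alternatives). CLEC5A was listed at 0 in every NC pig and at 7.44, 3.55 and 1.47 FPKM in HFCF pigs. CLEC7A, CLEC5A and OSCAR (means of 0.0473 and 0.428 FPKM), all among the 6, passed the filter only through the HFCF pigs. CD79A, the chain of the B cell antigen receptor given above, was also among the 6.

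Inhibitory receptors rose in part, with 4 of 9 higher and 0 lower. CD300LF, among the 4, passed the filter only through the HFCF pigs (means of 0.0526 and 1.60 FPKM). CD300A, a lipid-binding receptor that recruits PTPN6, went from a mean of 0.315 to 9.06 FPKM (log2 fold change 4.68). CD22, a sialic acid receptor, went from 0.356 to 3.18 FPKM (2.76), and SIRPA, the receptor for CD47, from 5.23 to 21.8 FPKM (1.996).

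Of the 12 other kinases of the SRC, SYK and TEC families, the regulator CSK included, 4 were higher and 0 lower. TEC, a relative of BTK, went from a mean of 0.472 to 2.92 FPKM (log2 fold change 2.19) and YES1 from 0.814 to 2.85 FPKM (1.69). FGR, a myeloid SRC family kinase, had means of 6.13 and 17.6 FPKM and did not pass (log2 fold change 1.43, limma adjusted p = 0.0586).

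Among adaptors 7 of 12 were higher and 1 lower. The scaffolds LAT2 (log2 fold change 3.82), PIK3AP1 (3.81), LCP2 (3.81) and BLNK (3.70), which link SYK and BTK to phospholipase C gamma or lipid kinases, were all higher in HFCF pigs. GAB2 was lower, from a mean of 15.8 to 6.78 FPKM (log2 fold change -1.21, limma adjusted p = 0.00970). Of 12 phospholipase, lipid kinase and PKC genes 6 were higher and 0 lower, among them the leukocyte PI3K genes PIK3R5 (2.70), PIK3CG (2.05) and PIK3CD (1.52, called under 6 of 15 alternatives).

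Of 12 actin and RAC genes, which drive the engulfment of particles, 7 were higher and 1 lower. WAS (log2 fold change 4.402), VAV1 (3.90) and CORO1A (3.41), all restricted largely to blood cells, were higher, and the broadly expressed WASF2 was lower, from a mean of 49.9 to 20.3 FPKM (-1.30, limma adjusted p = 0.00193). Of 14 phosphatases and negative regulators 6 were higher and 1 lower. PTPRC (CD45) had a log2 fold change of 3.92, the adaptor DOK2 3.85, UBASH3B 3.58 and INPP5D, the lipid phosphatase of inhibitory Fc receptors, 2.57. PTPN11 was lower, from 11.5 to 6.18 FPKM (-0.89, limma adjusted p = 0.0213). PTPN11 was not called with the replicate block, nor without NC pig 1, NC pig 3 or HFCF pig 3.

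**Figure D5:**
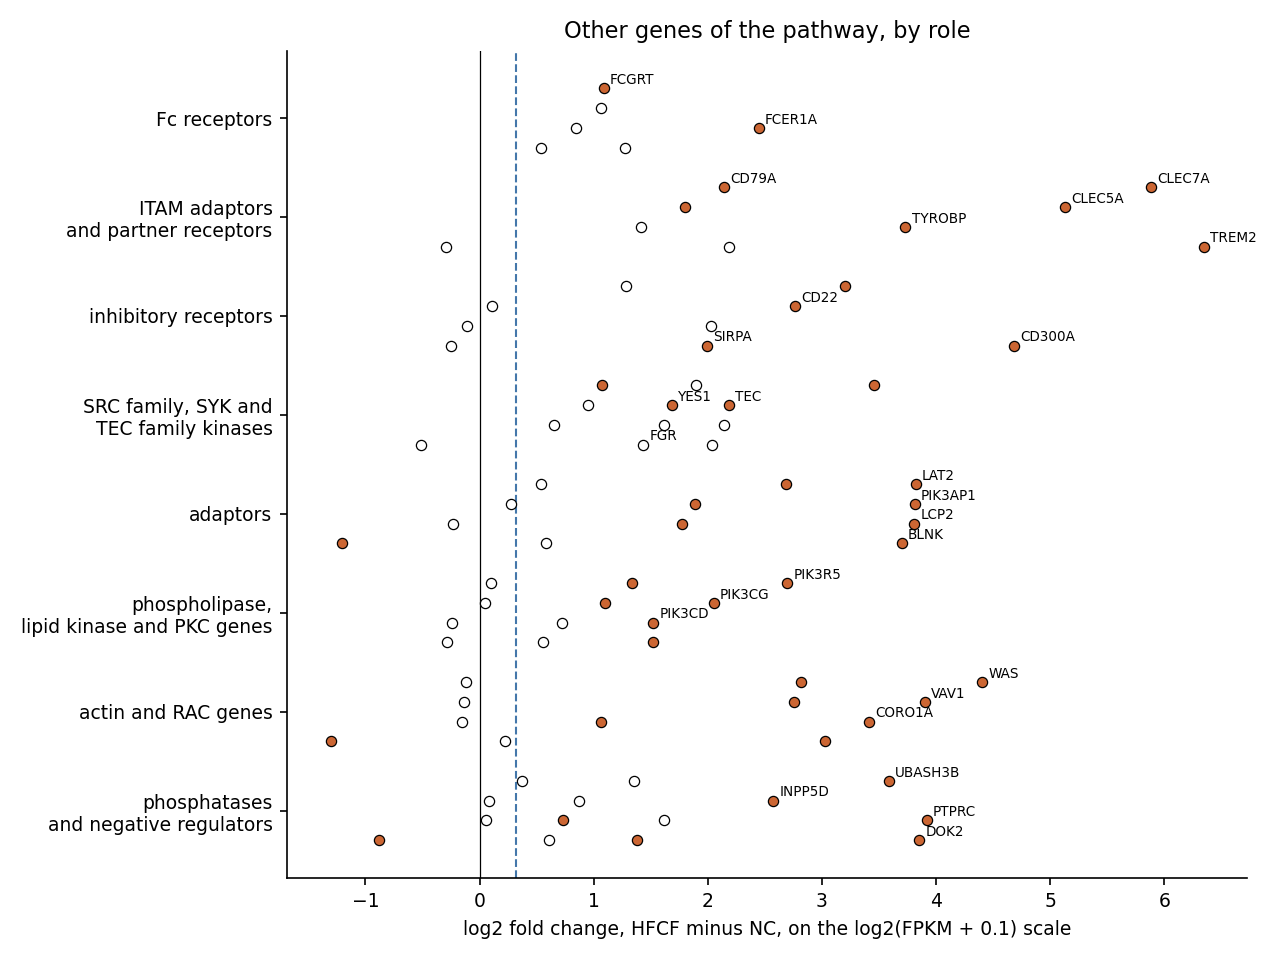
Log2 fold change (HFCF minus NC, log2(FPKM + 0.1) scale) of the 86 tested pathway genes outside the members, in rows by role. Filled points had a limma adjusted p under 0.05, open points did not, and the dashed line is the median of all genes (0.32), with 42 filled points to its right and 3 at negative values.

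The pathway annotation deposited with the values was also read, a choice made after the values were seen. Of the 74 tested genes annotated to Fc gamma R-mediated phagocytosis other than the members, 25 (33.8%) were higher and 6 (8.11%) lower, with a median log2 fold change of 0.21. For the 49 others of the Fc epsilon RI pathway 17 (34.7%) were higher and 3 lower (median 0.58), and for the 60 others of B cell receptor signalling 22 (36.7%) were higher and 3 lower (median 0.56). For the 87 others of natural killer cell mediated cytotoxicity 24 (27.6%) were higher and 2 lower (median 0.89). Of all tested genes 22.8% were higher. The medians of these 4 broad annotations ran from 0.21 to 0.89, beside 0.32 for all genes and 3.38 for the members.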

How the data were processed

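Per the methods and labels, the authors trimmed paired-end reads with cutadapt 1.9, aligned them with HISAT2 to an earlier pig genome build, assembled and quantified them with StringTie, and deposited FPKM values, used here unchanged. No coordinates are given. Read totals per library were not used here, so absolute depth is unknown, and precision comes from the spread among 3 pigs per group. Low FPKM steps gave relative depths. Values of 0.0001 FPKM were read as 0.

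Genes were matched by symbol, by Ensembl ID, or by the NCBI gene ID in the deposited description through RefSeq (Sscrofa11.1, names only). For the 15384 genes whose FPKM averaged 0.1 or more, log2(FPKM + 0.1) was tested in R 4.3.3 by limma 3.58.1 (eBayes with a trend) with Benjamini-Hochberg adjustment over these genes. The study names no test for its fold thresholds. Ratios within a pig were compared with exact permutation tests. Members, role groups and marker lists were chosen with earlier results of these data known. The genes named were all members, up to 3 of largest change per list with an adjusted p under 0.05 and a mean FPKM of at least 1, preset partners (TYROBP, FGR, FCGR2A, BLNK, VAV1, LCP2, CARD9, INPP5D), and the 6 genes most correlated with the members, and some genes of these lists are not reported here. No row matched FCGR2A, CARD9 or FCGR2B, so the planned ratio of FCGR2B to FCGR3A could not be computed.

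Repeats used a pseudocount of 1 or 0.01, dropped the filter or raised it to 1 FPKM, rescaled the values to TPM, by median ratios or by quantiles, omitted the eBayes trend, added a replicate block, or left out each library in turn. On simulated data of this comparison (15384 genes), 179 of 200 genes changed by a log2 value of 3 were recovered among 188 calls.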

Additional observations from a re-analysis of the deposited data

How the results depend on the processing

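The direction of all 8 members held under each of the 15 alternatives, and the count of members called higher was 6 under each of the 9 settings that kept all libraries and 5 to 7 when 1 pig was left out. The members past the thresholds of the study numbered 6 to 8. The replicate numbers did not pair the pigs (r of deviations between same-numbered pigs 0.02, -0.08 and -0.07), and with the replicate block 6 members were higher, as were 2232 of all genes (main 3505), with 540 lower (main 948) and 3 smooth muscle genes lower (main 6). Scaling moved the split of all genes: 2035 higher and 1982 lower with median-ratio scaling, 1748 and 1782 with quantile normalization, and 2146 and 1539 after rescaling to TPM, where the median log2 fold change was -0.01, -0.07 and 0.07. The other pathway genes called lower then numbered 6 with median-ratio scaling and 5 after rescaling to TPM (main 3), and without a filter 2 smooth muscle genes were lower. Leaving out 1 pig at a time, 1979 to 2815 genes were higher, 442 to 786 lower, 1 to 7 smooth muscle genes lower, and the ratio of the type II-like receptor to FCGR3A differed by -0.31 to 0.17. FCGR3A relative to the macrophage markers was -0.11 with a pseudocount of 0.01 and -0.18 to 0.27 with 1 pig left out, and BTK was -0.12 with a pseudocount of 1. The causes were not tested. The values of SYK and BTK, which lay under 1 FPKM in the NC pigs, moved with the pseudocount. The simulation covered a log2 change of 3 only, in 200 genes, and gave both groups the same SD for each gene. In the data 3505 genes were called higher and 948 lower, and members such as FCER1G and PTPN6 spread more widely in HFCF pigs. The recovery and false calls of the simulation may therefore not carry over. The changed genes of the simulation were drawn from those with a positive mean of log2(FPKM + 0.1) in NC pigs, which leaves out SYK and BTK. The power for smaller changes, or for genes as low as these, with 3 pigs a group is not known.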

Other observations

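The Fc receptor-like genes, relatives of the Fc receptors known from B cells and other lymphocytes, were looked up after the values were seen. FCRL3 was listed at 0, 0 and 0.109 FPKM in the NC pigs and at 9.71, 3.05 and 2.05 FPKM in the HFCF pigs. FCRL1 was listed at 0 in every NC pig and at 4.09, 1.91 and 0.807 FPKM in the HFCF pigs. FCRL3 and FCRL1 passed the filter only through the HFCF pigs, so no p-value is given for them. Both were highest in the first HFCF pig. FCRL4 and FCRL6 were below the filter. The B cell gene MS4A1 was at 1.28 FPKM in the first HFCF pig and at 0 in the other pigs.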
